A study of Mus musculus with 24 samples.

Results

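Transcript levels in microglia were compared between 2 inbred mouse strains, C57BL/6J (B6), which supplied the mouse reference genome, and DBA/2J (D2). Ventral hippocampus was taken from adult males aged 10 to 16 weeks, its nuclei were sorted into a mix of neuronal and non-neuronal nuclei, and each library combined about 2 animals. The microglia were the nuclei that the authors assigned to their MGC cluster, taken as the MGC columns of the deposited single-nucleus RNA sequencing (snRNA-seq) counts. By the authors' numbers of nuclei they were 1093 of 30880 (3.54%), with 289 and 358 in B6 libraries 2 and 3, and 204 and 242 in D2 libraries 2 and 3. Values of a strain are given in this order of libraries throughout. Only the 16350 of 33902 gene symbols with at least 1 microglial count in each strain were compared, because the deposited table holds symbols counted in 1 strain each, such as the older and newer names March1 (397 and 372 counts in B6) and Marchf1 (178 and 240 counts in D2) of a single gene.

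Microglia are the resident macrophages of the brain. They derive from yolk sac progenitors, depend on signalling through the receptor Csf1r, survey the tissue with motile processes guided by purinergic receptors such as P2ry12, and clear synapses and dying cells with the help of complement and phagocytic receptors such as Mertk. Their identity rests on transcription factors that include PU.1 (Spi1), Irf8, Mef2c and Sall1. B6 and D2 are widely used as a pair in genetic studies of brain and immune traits.

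The 18 microglial markers were all detected. Their summed level, in CPM (counts scaled to the library's total of microglial counts), was 15659 and 15452 CPM in B6 and 14832 and 16136 CPM in D2. All 18 passed the filter on low counts, and 2 of them differed between strains (C1qc and P2ry12, described with their roles). That is 11.1%, against 8.06% of all tested transcripts. The 8 markers of border macrophages summed to 663 and 853 CPM in B6 and 769 and 504 CPM in D2. Of 12 listed markers of T and B cells, monocytes, neutrophils and other leukocytes, 9 were among the gene symbols. Ly6c2, S100a8 and Nkg7 were not. These 9 summed to at most 40.3 CPM, with S100a9 and Cd3g at 0.

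Transcripts of neurons, astrocytes and oligodendrocytes were present in the microglial columns, at lower summed levels in D2. Neuronal markers summed to 3157 and 2658 CPM in B6 and 1518 and 2154 CPM in D2. Astrocyte markers summed to 684 and 681 CPM in B6 and 503 and 409.6 CPM in D2, and oligodendrocyte markers to 484 and 473 CPM in B6 and 421 and 259.6 CPM in D2. In each of these 3 lists both D2 libraries lay below both B6 libraries. Of the tested members 4 of 8 neuronal (Snap25, Syt1, Grin2a and Meg3), 1 of 7 astrocyte (Slc1a3) and 2 of 6 oligodendrocyte markers (Mbp among them) were lower at adjusted p under 0.05 and none was higher (4.8% of all tested transcripts were lower), with list medians of -0.64, -0.60 and -0.84 on the log2 scale. None of these 7 was called by DESeq2, and each lost its call without at least 1 library. Vascular and leptomeningeal markers went the other way, at 99.2 and 64.5 CPM in B6 and 127 and 165 CPM in D2. The part of these other transcripts in the strain differences was not tested.

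**Figure D1:**
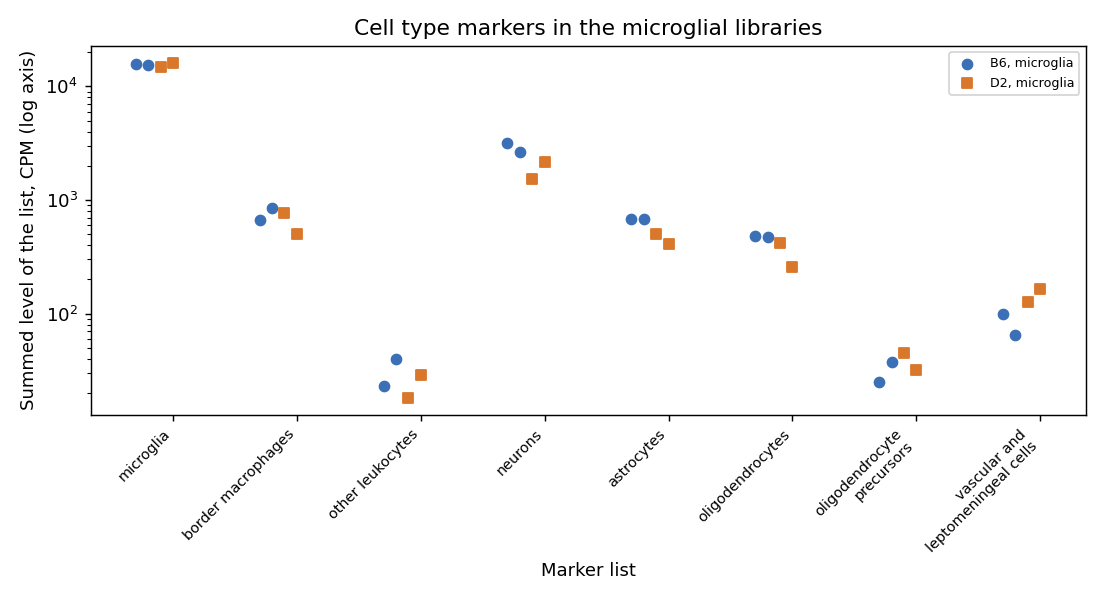
Summed levels of 8 lists of cell type markers in CPM (log axis), with 1 point per library. Blue circles are B6 and orange squares are D2. The microglial list lies between 14832 and 16136 CPM, and the neuronal, astrocyte and oligodendrocyte lists are lower in both D2 libraries than in both B6 libraries.

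The microglial libraries held 514337 and 744129 counts in B6 and 439262 and 593279 counts in D2. As a description across the 8243 transcripts with a mean of 20 CPM or more, the log2 levels of the B6 libraries correlated at 0.941, those of the D2 libraries at 0.924 and those of different strains at 0.82 to 0.859. The libraries of a strain differed by more than sampling noise (chi-square per degree of freedom 1.71 in B6 and 1.63 in D2) and were kept as separate replicates. The p-values rest on the spread between these pools of animals, with the variance of each transcript drawn towards the trend over all transcripts. They can therefore understate the spread of a single transcript. A permutation of 2 against 2 libraries cannot go below an exact p of 0.33.

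Of the 16350 symbols, 8796 passed the filter on low counts. At adjusted p under 0.05 in edgeR's quasi-likelihood test (D2 minus B6, Benjamini-Hochberg adjustment), 709 transcripts differed, 8.06% of those tested. D2 was higher for 287 (3.26%) and lower for 422 (4.8%). The median absolute log2 fold change of the 709 was 1.22, and 147 of them exceeded 2. DESeq2, which the study used, called 157 transcripts (1.52% of the 10328 with an adjusted p), 67 higher and 90 lower, and all 157 were among the 709. In 707 of the 709, both D2 libraries lay on one side of both B6 libraries, as they did for 49% of all tested transcripts.

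Overlapping genes made up much of the lower group. Of the transcripts called lower in D2, 242 of 422 (57.3%) overlapped another gene on the same strand, against 74 of 287 (25.8%) of those called higher and 27.6% of all tested. An overlap, on either strand, with a symbol that had microglial counts in 1 strain only was found for 156 of 422 (37%), 64 of 287 (22.3%) and 17.9%. Of the 93 that were lower by more than 2 on the log2 scale, 73 had an overlap of either kind or no single annotation entry, against 15 of 54 that were higher by as much. Without genes that overlap on the same strand, 208 were higher and 211 lower. The part of these overlaps in the fold changes was not tested. Overlaps with a symbol counted in 1 strain are given beside the called transcripts described below.

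**Figure D2:**
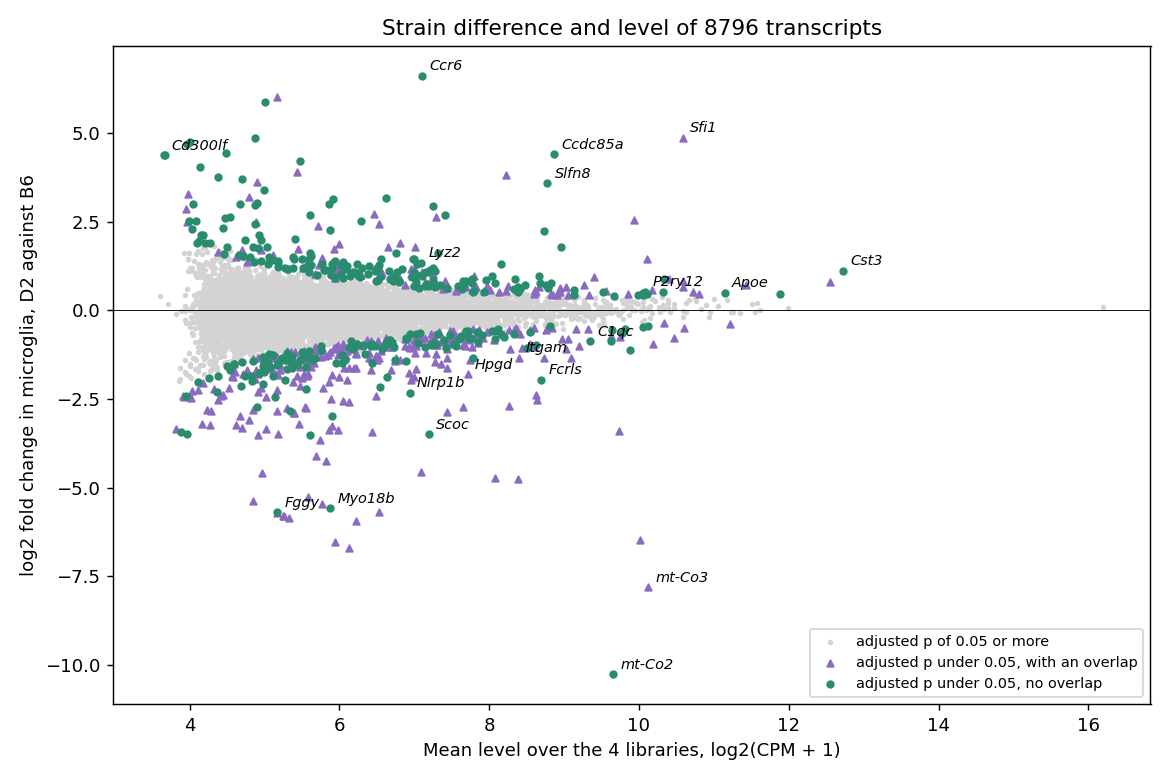
log2 fold change in microglia, D2 against B6 (vertical), against the mean level over the 4 libraries in log2(CPM + 1) (horizontal), with 1 point per tested transcript. Grey points did not pass the test, purple triangles passed it and overlap a gene on their strand or a symbol with counts in 1 strain, and green points passed it without such an overlap. Among the 93 decreases of more than 2, 73 have an overlap or no single annotation entry.

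The largest decreases were of this kind or were transcripts of the mitochondrial genome. mt-Co2 was at 1447 and 1775 CPM in B6 and 0 and 1.87 CPM in D2, and mt-Co3 was at 2034 and 2385 CPM in B6 and 10.1 and 9.35 CPM in D2 (both subunits of cytochrome c oxidase). The ATP synthase subunit mt-Atp6 was at 1877 and 2199 CPM in B6 and 30.2 and 16.8 CPM in D2, and the complex I subunit mt-Nd4l was at 125 and 166 CPM in B6 and 0 and 3.74 CPM in D2. Of the 12 mitochondrial messenger RNAs tested, 11 passed the test as lower in D2 and mt-Atp8 did not pass, with log2 fold changes between -10.27 and -0.55. However, the ribosomal RNAs mt-Rnr1 (1324 and 1151 counts) and mt-Rnr2 (3204 and 3263 counts) were counted in D2 only and mt-Nd3 (106 and 195 counts) in B6 only, so the symbols counted for this genome differed between strains. Of the nuclear-encoded genes, Gng10 was at 146 and 129 CPM in B6 and 0 and 1.87 CPM in D2 (a G protein gamma subunit) and overlapped Gm20503, a symbol with counts in D2 only (6 and 4). Sap25 with Gm20605, Pram1 with Gm20507 and Schip1 with Iqschfp were of the same kind, Trim12a overlapped Gm15133 on the other strand, and Rnasek shared its strand with Gm21988, which had no microglial counts. These 5 had at most 3 counts in D2, and 89 (Sap25), 82 (Pram1), 204 (Schip1), 145 (Trim12a) and 87 (Rnasek) in B6. The pooled level of Trim12a, its summed counts scaled to the strain's total counts, was 119 times (exact 95% counting interval 21 to 4731) as high in B6 as in D2.

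Without a gene on their strand or an overlapping symbol counted in 1 strain, 2 of the 12 largest decreases remained beside mt-Co2. Myo18b (chr5:112688876-112896362), an unconventional myosin, was at 104 and 122 CPM in B6 and 2.52 and 1.87 CPM in D2, and its pooled level in B6 was 55.4 times (exact 95% counting interval 15 to 462) that of D2 (log2 fold change -5.58, SE 0.49, adjusted p = 1.80e-08). Fggy (chr4:95557507-95926939), a carbohydrate kinase, was at 79.4 and 58.8 CPM in B6 and 0 and 1.87 CPM in D2, with a pooled level in B6 that was 64.8 times (exact 95% counting interval 11.3 to 2592) that of D2. For both, 2 counts or fewer were found over the D2 libraries.

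Transcripts that were higher in D2 were led by a chemokine receptor. Ccr6 (chr17:8236043-8257141), the receptor of the chemokine Ccl20, was at 0 and 4.3 CPM in B6 and 259 and 282 CPM in D2. There were 3 counts in B6 and 254 in D2. Pooled over the libraries and scaled to their total counts, its level in D2 was 103 times that in B6 (exact 95% counting interval 34.9 to 504). Slfn8 was at 45.9 and 83.1 CPM in B6 and 818 and 806 CPM in D2, and its neighbour Slfn9 was at 6.26 and 4.3 CPM in B6 and 78 and 80.4 CPM in D2. These are Schlafen genes, a family regulated in immune cells (log2 fold change 3.59, SE 0.19, adjusted p = 8.39e-13 for Slfn8). Schlafen genes are a family of similar copies, and how the counting assigned reads between Slfn8 and Slfn9 was not tested, so their values are uncertain. Slfn9 also shares its strand with Mir7679.

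Ccdc85a was at 39.7 and 43 CPM in B6 and 984 and 793 CPM in D2 (log2 fold change 4.40, SE 0.19, adjusted p = 2.36e-14). This gene (chr11:28385685-28584324) encodes a coiled-coil protein, and its libraries were far apart between strains and close within them. Gnb4 was at 2.09 and 5.73 CPM in B6 and 95.6 and 71.1 CPM in D2, for a G protein beta subunit (log2 fold change 4.20, SE 0.47, adjusted p = 1.10e-06). Mnd1 was at 0 and 1.43 CPM in B6 and 45.3 and 78.5 CPM in D2, with a pooled level in D2 that was 73.1 times (exact 95% counting interval 12.6 to 2936) that of B6, and it is known for its part in meiotic recombination. The DNA ligase gene Lig4 was at 2.09 and 1.43 CPM in B6 and 40.2 and 69.2 CPM in D2, with 2 counts in B6 and 53 in D2, and the malonyl-CoA decarboxylase gene Mlycd was at 16.7 and 21.5 CPM in B6 and 181 and 170.2 CPM in D2 (log2 fold change 3.15, SE 0.28, adjusted p = 2.41e-08). DESeq2 called all 5.

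The remaining increases carried an overlap or a copy. Sfi1 was at 109 and 96 CPM in B6 and 3076 and 2868 CPM in D2 and Pisd was at 48 and 33 CPM in B6 and 533 and 574 CPM in D2, and both shared their strand with a symbol counted in 1 strain (Gm11400 and Gm20671) and have copies elsewhere in the mouse genome. Tpm3-rs7 was at 0 and 2.87 CPM in B6 and 37.7 and 44.9 CPM in D2, and it is a copy related to the tropomyosin gene Tpm3. Sv2c, of a synaptic vesicle protein, was at 8.35 and 1.43 CPM in B6 and 32.7 and 72.9 CPM in D2 and shared its strand with Gm20075, counted in 1 strain, and its call was lost without D2 library 3 (adjusted p = 0.183).

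Reference sequence is shown at the start of 5 genes that are described above or with their roles. Of these, Ccr6 and Ccdc85a rose, and Fcrls, Nlrp1b and Fggy fell in D2. The part of the start sequences in these differences was not tested. Each run holds 250 bases before the start and 50 after it, from RefSeq on GRCm38.p6, 5′ to 3′. It is the B6 sequence, and D2 sequence was not analysed. Capitals mark GAGGAA or its reverse complement TTCCTC, letters at the core of sites bound by PU.1, which 28.3% of the 32851 promoters in the RefSeq table hold.
Ccr6, chr17:8235793-8236092, plus strand: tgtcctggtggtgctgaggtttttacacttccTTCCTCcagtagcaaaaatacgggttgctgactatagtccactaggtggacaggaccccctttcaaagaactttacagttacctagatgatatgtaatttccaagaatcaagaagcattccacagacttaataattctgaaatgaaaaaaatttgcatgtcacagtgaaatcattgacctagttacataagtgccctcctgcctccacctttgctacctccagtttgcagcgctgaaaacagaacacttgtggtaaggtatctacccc
Ccdc85a, chr11:28584275-28584574, minus strand: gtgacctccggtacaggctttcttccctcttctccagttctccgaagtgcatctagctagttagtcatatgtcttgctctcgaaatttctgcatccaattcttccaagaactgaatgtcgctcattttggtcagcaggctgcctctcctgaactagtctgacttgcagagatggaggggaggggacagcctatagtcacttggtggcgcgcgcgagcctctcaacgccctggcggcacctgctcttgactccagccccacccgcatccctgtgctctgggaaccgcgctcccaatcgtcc
Fcrls, chr3:87263475-87263774, minus strand: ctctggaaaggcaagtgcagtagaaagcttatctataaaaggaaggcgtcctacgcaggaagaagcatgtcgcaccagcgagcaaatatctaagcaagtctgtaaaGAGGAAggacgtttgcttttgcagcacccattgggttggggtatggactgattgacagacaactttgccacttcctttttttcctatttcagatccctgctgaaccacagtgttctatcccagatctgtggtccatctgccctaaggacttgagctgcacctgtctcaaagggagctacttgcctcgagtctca
Nlrp1b, chr11:71230684-71230983, minus strand: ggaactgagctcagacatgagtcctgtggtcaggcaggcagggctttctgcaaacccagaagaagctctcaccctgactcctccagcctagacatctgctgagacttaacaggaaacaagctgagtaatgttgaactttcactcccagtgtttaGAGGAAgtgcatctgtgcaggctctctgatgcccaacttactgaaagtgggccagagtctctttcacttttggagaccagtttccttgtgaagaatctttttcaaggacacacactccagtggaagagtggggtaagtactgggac
Fggy, chr4:95557257-95557556, plus strand: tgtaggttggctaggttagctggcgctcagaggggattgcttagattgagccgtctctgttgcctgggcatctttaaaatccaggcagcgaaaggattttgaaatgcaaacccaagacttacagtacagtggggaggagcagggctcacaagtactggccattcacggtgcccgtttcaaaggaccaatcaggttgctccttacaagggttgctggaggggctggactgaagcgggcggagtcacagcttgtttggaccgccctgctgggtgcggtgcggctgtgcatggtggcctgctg

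The letters occurred once in the Ccr6, Fcrls and Nlrp1b windows shown, and not in those of Ccdc85a and Fggy. RefSeq lists a second start for Ccr6 (window chr17:8242276-8242575), Nlrp1b (chr11:71201407-71201706) and Fggy (chr4:95579171-95579470), and none of these windows, which are not printed, holds the letters. A match is a description of the reference and no record of binding.

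To set aside overlaps, the same rule was applied to transcripts with no other gene on their strand and no overlapping symbol with counts in 1 strain. This choice was made after the values had been seen. It left 278 of the 592 transcripts that met the rule, 154 higher and 124 lower. The 12 largest in each direction are plotted, and they include Ccr6, Mnd1, Lig4, Tpm3-rs7, Ccdc85a, Gnb4, Slfn8 and Mlycd among those higher in D2 and mt-Co2, Fggy and Myo18b among those lower.

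**Figure D3:**
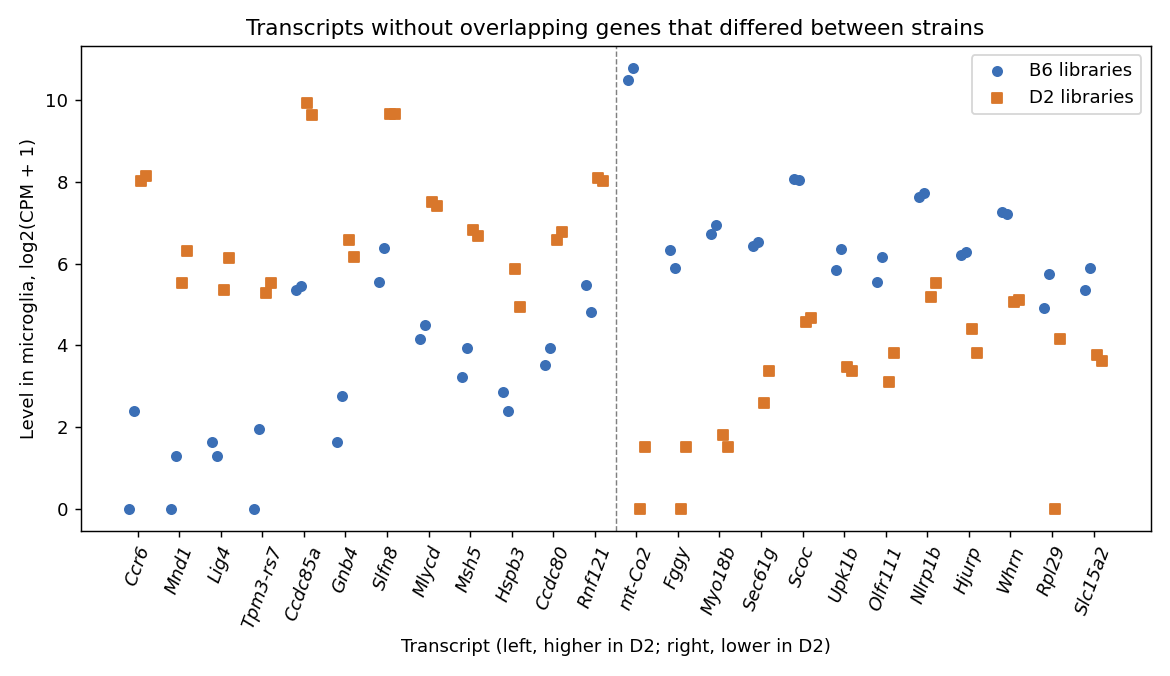
Levels of 24 transcripts without overlapping genes in log2(CPM + 1), 12 higher in D2 on the left of the dashed line and 12 lower on the right, with 1 point per library (blue circles, B6, and orange squares, D2). The rule kept only transcripts in which both D2 libraries lie on one side of both B6 libraries. Ccr6 is at 0 and 4.3 CPM in B6 and Myo18b at 2.52 and 1.87 CPM in D2.

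The others that were higher in D2 were Msh5, Ccdc80, Rnf121 and Hspb3. Msh5, a MutS homologue of meiosis, was at 8.35 and 14.3 CPM in B6 and 113 and 101 CPM in D2 (log2 fold change 3.14, SE 0.35, adjusted p = 1.01e-06), and Ccdc80, of an extracellular matrix protein, was at 10.4 and 14.3 CPM in B6 and 95.6 and 108 CPM in D2 (log2 fold change 2.99, SE 0.34, adjusted p = 1.52e-06). Rnf121, a RING finger protein, was at 43.9 and 27.2 CPM in B6 and 274 and 259.9 CPM in D2 (log2 fold change 2.95, SE 0.23, adjusted p = 2.89e-09). For these 3 genes, as for the others, the rule required the libraries of the strains to be apart. Hspb3, a small heat shock protein, was at 6.26 and 4.3 CPM in B6 and 57.9 and 29.9 CPM in D2, and its call was lost with DESeq2 (adjusted p = 0.062) and without D2 library 2 (adjusted p = 0.184).

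Among those lower in D2, Scoc, a short coiled-coil protein of the Golgi, was at 269 and 265 CPM in B6 and 22.6 and 24.3 CPM in D2 (log2 fold change -3.49, SE 0.24, adjusted p = 3.15e-10), and Sec61g, a subunit of the Sec61 channel of the endoplasmic reticulum, was at 85.6 and 91.7 CPM in B6 and 5.03 and 9.35 CPM in D2 (log2 fold change -3.53, SE 0.41, adjusted p = 1.78e-06). Whrn, a scaffold protein known from hair cells, was at 152 and 149 CPM in B6 and 32.7 and 33.7 CPM in D2 (log2 fold change -2.17, SE 0.26, adjusted p = 3.27e-06). The tetraspanin gene Upk1b was at 56.4 and 81.7 CPM in B6 and 10.1 and 9.35 CPM in D2, and Hjurp, a chaperone of the centromeric histone, at 73.1 and 77.4 CPM in B6 and 20.1 and 13.1 CPM in D2. DESeq2 called these 5. The olfactory receptor gene Olfr111 was at 45.9 and 70.2 CPM in B6 and 7.55 and 13.1 CPM in D2 and was not called by DESeq2 (adjusted p = 0.0841). The peptide transporter gene Slc15a2 was at 39.7 and 58.8 CPM in B6 and 12.6 and 11.2 CPM in D2, and its call was lost with DESeq2 (adjusted p = 0.283) and without B6 library 3 (adjusted p = 0.103). Rpl29, of a ribosomal protein with processed copies in the genome, was at 29.2 and 53 CPM in B6 and 0 and 16.8 CPM in D2, and its call was lost with DESeq2 (adjusted p = 1), without B6 library 3 (adjusted p = 0.375) and without D2 library 2 (adjusted p = 0.122). Nlrp1b, also in this group, is described with the innate sensors.

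The transcription factors of microglial identity were called about as often as other transcripts. Of 23 listed, 22 were tested, 1 rose and 1 fell, 9.09% against the 8.06% of all tested, with a median log2 fold change of 0.01. Spi1 was at 207 and 258 CPM in B6 and 231 and 232 CPM in D2, and Irf8 was at 192 and 226 CPM in B6 and 206 and 219 CPM in D2. Mef2c was at 1694 and 1954 CPM in B6 and 2347 and 2225 CPM in D2 (log2 fold change 0.32, SE 0.11, adjusted p = 0.0629). The B6 and D2 libraries overlapped for Spi1 and Irf8 and did not for Mef2c. Klf12, a Krüppel-like repressor, rose (374 and 417 CPM in B6 and 591 and 576 CPM in D2, log2 fold change 0.56), but its call was lost with DESeq2 (adjusted p = 0.217), and it overlapped Gm16260, counted in 1 strain. Foxp1, a forkhead factor, fell (532 and 539 CPM in B6 and 413 and 344 CPM in D2, log2 fold change -0.51), and its call was lost with DESeq2 (adjusted p = 0.546), without B6 library 2 (adjusted p = 0.0525), without B6 library 3 (adjusted p = 0.0752) and without D2 library 3 (adjusted p = 0.347). Foxp1 shares its strand with Gm20696, which had 20 and 34 counts in D2 and none in B6.

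**Figure D4:**
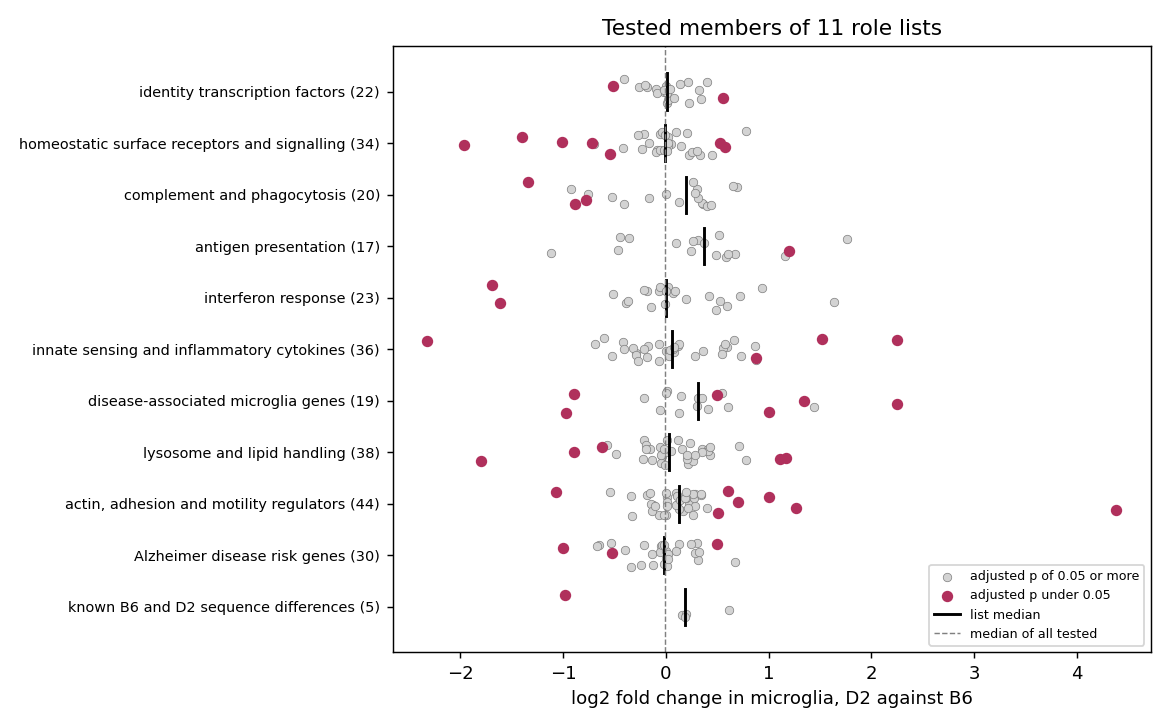
log2 fold changes in microglia, D2 against B6, for the tested members of 11 lists of genes grouped by role (number tested in brackets). Each point is a transcript, red at adjusted p under 0.05, the black bar is the list's median and the dashed line the median of all tested. The members at adjusted p under 0.05 lie on both sides of 0 in 7 of the 11 lists, and the list medians lie between -0.02 and 0.37.

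Surface receptors and signalling proteins of homeostatic microglia changed in both directions. Of 34 tested members 7 were called (20.6%, against 8.06% of all tested), 2 higher and 5 lower, while the list's median log2 fold change was -0.01. Fcrls (chr3:87250758-87263738), an Fc receptor-like protein used as a marker of microglia, was at 606 and 711 CPM in B6 and 143 and 191 CPM in D2 (log2 fold change -1.96, SE 0.16, adjusted p = 5.18e-09). Both D2 libraries lay far below both B6 libraries. Crybb1, a crystallin gene expressed by microglia, was at 100.2 and 93.2 CPM in B6 and 37.7 and 35.5 CPM in D2 (log2 fold change -1.39, SE 0.28, adjusted p = 0.00198), and it was not called by DESeq2 (adjusted p = 0.23). Entpd1 (CD39), which degrades extracellular ATP, was at 1052 and 913 CPM in B6 and 574 and 617 CPM in D2 (log2 fold change -0.72, SE 0.12, adjusted p = 3.88e-04), and it shares its strand with AC166063.1, Gm8783 and Gm16027.

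P2ry12, the receptor by which microglial processes sense ADP, rose from 875 and 904 CPM in B6 to 1217 and 1344 CPM in D2 (log2 fold change 0.53, SE 0.11, adjusted p = 0.00377), with DESeq2 just short of the threshold (adjusted p = 0.0527). Sparc, a secreted matrix protein, was at 432 and 469 CPM in B6 and 616 and 724 CPM in D2 (log2 fold change 0.57, SE 0.13, adjusted p = 0.00653), and its call was lost with DESeq2 (adjusted p = 0.16) and without D2 library 3 (adjusted p = 0.108). Selplg (PSGL-1) was at 1084 and 809.9 CPM in B6 and 619 and 669 CPM in D2 (log2 fold change -0.55, SE 0.14, adjusted p = 0.0113), and its call was lost with DESeq2 (adjusted p = 0.241), without B6 library 2 (adjusted p = 0.248) and without D2 library 2 (adjusted p = 0.0755). The fructose transporter Slc2a5 was at 100.2 and 126 CPM in B6 and 47.8 and 63.6 CPM in D2 (log2 fold change -1.01, SE 0.26, adjusted p = 0.0145), and its call was lost with DESeq2 (adjusted p = 0.579), without B6 library 3 (adjusted p = 0.136) and without D2 library 2 (adjusted p = 0.121). Other defining receptors did not pass the test. Cx3cr1 was at 1384 and 1403 CPM in B6 and 1343 and 1539 CPM in D2, Csf1r at 1249 and 1316 CPM in B6 and 1285 and 1320.1 CPM in D2, and Siglech at 933 and 972 CPM in B6 and 921 and 1009.7 CPM in D2, with log2 fold changes of 0.05, 0.02 and 0.02.

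Complement and phagocytosis genes were called in 3 of 20 tested members (15%, against 8.06% of all tested), all lower in D2 (4.8% of all tested were lower), although the list's median was 0.19. C1qc (chr4:136889804-136893065), which encodes 1 of the 3 chains of C1q, was at 896 and 793 CPM in B6 and 430.1 and 482 CPM in D2 (log2 fold change -0.88, SE 0.13, adjusted p = 5.30e-05). The other chains were not called. C1qb was at 835 and 789.8 CPM in B6 and 506 and 707 CPM in D2 (log2 fold change -0.41, adjusted p = 0.0728), and C1qa was at 1115 and 1098 CPM in B6 and 1283 and 1558 CPM in D2 (0.36, adjusted p = 0.0544), so that the neighbouring genes of the 3 chains had values on both sides of 0. The phagocytic receptor tyrosine kinase Mertk was at 1721 and 1833 CPM in B6 and 1175 and 914 CPM in D2 (log2 fold change -0.77, SE 0.12, adjusted p = 1.13e-04), and it shares its strand with Gm23172. Itgam (CD11b) was at 457 and 502 CPM in B6 and 204 and 178 CPM in D2 (log2 fold change -1.34, SE 0.15, adjusted p = 1.44e-06), and it shares its strand with Gm49368, counted in 1 strain. All 3 were called by DESeq2 and without any 1 library. Of the 28 listed genes, Siglec1 and Clec7a had counts only in D2 (11 and 4, and 3 and 8 counts), and Fcgr4 1 count only in B6.

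Among genes of innate sensing and inflammatory cytokines, 3 of 36 tested members rose and 1 fell (11.1%, against 8.06% of all tested). The inflammasome sensor Nlrp1b (chr11:71153102-71230733) was at 196 and 211 CPM in B6 and 35.2 and 44.9 CPM in D2 (log2 fold change -2.32, SE 0.23, adjusted p = 2.16e-07), whereas its neighbour Nlrp1a (chr11:71092236-71144704) was at 16.7 and 31.5 CPM in B6 and 70.4 and 74.8 CPM in D2 (log2 fold change 1.52, SE 0.34, adjusted p = 0.00469). They are similar copies, and how the counting assigned reads between them was not tested, so their values are uncertain. DESeq2 called Nlrp1b and not Nlrp1a (adjusted p = 0.273). The chemokine gene Ccl6 was at 14.6 and 24.4 CPM in B6 and 72.9 and 118 CPM in D2 (log2 fold change 2.25, SE 0.34, adjusted p = 8.41e-05), and both D2 libraries were above both B6 libraries. Cd14, the co-receptor for bacterial lipopolysaccharide, was at 85.6 and 58.8 CPM in B6 and 128 and 131 CPM in D2 (log2 fold change 0.88, SE 0.24, adjusted p = 0.0228), and its call was lost with DESeq2 (adjusted p = 0.65), without B6 library 3 (adjusted p = 0.284) and without D2 library 3 (adjusted p = 0.065). Tlr4, the receptor it serves, was at 117 and 98.9 CPM in B6 and 95.6 and 80.4 CPM in D2, and Nlrp3 at 66.8 and 61.6 CPM in B6 and 50.3 and 61.7 CPM in D2, and neither passed the test (adjusted p = 0.545 and 0.807).

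Antigen presentation genes were mostly near the filter. Of 30 listed, 17 were tested and 1 was called (5.88%, against 8.06% of all tested). The costimulatory ligand Cd80 was at 27.1 and 27.2 CPM in B6 and 52.8 and 71.1 CPM in D2 (log2 fold change 1.20, SE 0.33, adjusted p = 0.0244), and its call was lost with DESeq2 (adjusted p = 0.725), without B6 library 3 (adjusted p = 0.0747) and without D2 library 3 (adjusted p = 0.243). The list's median was 0.37, with B2m, the light chain of MHC class I, at 159 and 128 CPM in B6 and 151 and 271 CPM in D2 and H2-D1 at 87.7 and 64.5 CPM in B6 and 90.6 and 131 CPM in D2, and neither passed the test (adjusted p = 0.0904 and 0.181). Of the class II chaperone genes, H2-DMb2 was at 10.4 and 5.73 CPM in B6 and 22.6 and 29.9 CPM in D2 and H2-DMb1 was at 25.1 and 43 CPM in B6 and 17.6 and 15 CPM in D2, near-identical copies with uncalled differences of opposite sign.

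Interferon response genes had a median of 0.00 and were called in 2 of 23 tested members (8.7%), near the 8.06% of all tested. Both were lower in D2 (4.8% of all tested were lower), and none was called higher. Herc6, a ubiquitin ligase that is induced by interferon, was at 75.2 and 70.2 CPM in B6 and 22.6 and 24.3 CPM in D2 (log2 fold change -1.61, SE 0.33, adjusted p = 0.00232), and it was not called by DESeq2 (adjusted p = 0.247). Herc6 overlaps Gm45193, a symbol counted in 1 strain. Irf9 was at 60.6 and 40.1 CPM in B6 and 70.4 and 61.7 CPM in D2, and Bst2 at 25.1 and 22.9 CPM in B6 and 17.6 and 18.7 CPM in D2. Of the 55 listed genes, 19 were under the filter, 9 had counts in 1 strain and 4 had none. Among those with counts in 1 strain were Mx2 (14 and 8 counts in D2) and Trim30d (39 and 61 counts in B6).

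Genes that rise in disease-associated microglia were called in 6 of 19 tested members (31.6%, against 8.06% of all tested), 4 higher and 2 lower, with a median of 0.31. Of the 35 listed, 13 were under the filter. Apoe, the lipid carrier, was at 1923 and 1839 CPM in B6 and 2495 and 2795 CPM in D2 (log2 fold change 0.49, SE 0.10, adjusted p = 0.00294), and Lyz2 (lysozyme) at 54.3 and 96 CPM in B6 and 174 and 219 CPM in D2 (log2 fold change 1.34, SE 0.23, adjusted p = 3.60e-04). Ccl6, a chemokine of the previous list, and the class I myosin Myo1e were the other increases, with Myo1e at 54.3 and 45.9 CPM in B6 and 113 and 87.9 CPM in D2 (log2 fold change 1.00, SE 0.27, adjusted p = 0.0194), with its call lost with DESeq2 (adjusted p = 0.609), without B6 library 3 (adjusted p = 0.124) and without D2 library 2 (adjusted p = 0.128). Fth1, the ferritin heavy chain, was at 595 and 453 CPM in B6 and 234 and 292 CPM in D2 (log2 fold change -0.97, SE 0.16, adjusted p = 2.21e-04), and the protease gene Ctsl at 219 and 215 CPM in B6 and 108 and 123 CPM in D2 (log2 fold change -0.89, SE 0.18, adjusted p = 0.00222), which was not called by DESeq2 (adjusted p = 0.237) and shares its strand with Gm49230. Apoe, Lyz2 and Fth1 were called by DESeq2 and without any 1 library. The receptor complex of the disease-associated state, Trem2 and Tyrobp, was at 338 and 319.6 CPM in B6 and 367 and 443 CPM in D2 and at 223 and 238 CPM in B6 and 194 and 303 CPM in D2 and did not pass the test.

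Of the lysosomal and lipid-handling genes, 2 of 38 tested members rose and 3 fell (13.2%, against 8.06% of all tested), around a median of 0.03. Hpgd, which inactivates prostaglandins, was at 319 and 329.7 CPM in B6 and 90.6 and 95.4 CPM in D2 (log2 fold change -1.80, SE 0.17, adjusted p = 1.20e-07), and it shares its strand with Gm45540, counted in 1 strain. Cst3 (cystatin C), an inhibitor of cysteine proteases, was at 3969.6 and 4558 CPM in B6 and 6757 and 11690.3 CPM in D2 (log2 fold change 1.11, SE 0.15, adjusted p = 1.74e-05). Its D2 libraries were far apart, and DESeq2 did not call it (adjusted p = 0.188). Alox5, of leukotriene synthesis, was at 20.9 and 25.8 CPM in B6 and 52.8 and 54.2 CPM in D2 (log2 fold change 1.17, SE 0.35, adjusted p = 0.0366), and its call was lost with DESeq2 (adjusted p = 0.863), without B6 library 2 (adjusted p = 0.122), without B6 library 3 (adjusted p = 0.0648), without D2 library 2 (adjusted p = 0.0698) and without D2 library 3 (adjusted p = 0.149). The cholesterol exporter Abca1 was at 386 and 513 CPM in B6 and 272 and 316 CPM in D2 (log2 fold change -0.62, SE 0.16, adjusted p = 0.0136), and its call was lost with DESeq2 (adjusted p = 0.415), without B6 library 3 (adjusted p = 0.31) and without D2 library 2 (adjusted p = 0.145). The cathepsin gene Ctsb was at 369.6 and 304 CPM in B6 and 322 and 346 CPM in D2 (log2 fold change 0.00) and did not pass the test.

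Regulators of actin, adhesion and motility were called in 7 of 44 tested members (15.9%, against 8.06% of all tested), 6 higher and 1 lower, with a median of 0.13. Arhgap22, which inactivates Rac, was the decrease, at 528 and 450.1 CPM in B6 and 249 and 217 CPM in D2 (log2 fold change -1.07, SE 0.15, adjusted p = 3.21e-05). Nav3, a microtubule-binding navigator protein, was at 1888 and 2295 CPM in B6 and 3547 and 3278 CPM in D2 (log2 fold change 0.70, SE 0.11, adjusted p = 9.32e-05), and Apbb1ip (RIAM), which links Rap1 to integrin activation, at 1069 and 1036 CPM in B6 and 1477 and 1507 CPM in D2 (log2 fold change 0.50, SE 0.11, adjusted p = 0.00384). Nav3 shares its strand with Gm36935 and Gm47340 and overlaps Gm47339, counted in 1 strain. The adaptor Pik3ap1 was at 229.7 and 277 CPM in B6 and 402 and 374 CPM in D2 (log2 fold change 0.60, SE 0.15, adjusted p = 0.0121), and its call was lost with DESeq2 (adjusted p = 0.341), without B6 library 2 (adjusted p = 0.103) and without D2 library 2 (adjusted p = 0.0698). Pecam1, also a marker of endothelial cells, was at 29.2 and 28.7 CPM in B6 and 47.8 and 87.9 CPM in D2 (log2 fold change 1.27, SE 0.34, adjusted p = 0.0208), and its call was lost with DESeq2 (adjusted p = 0.662) and without D2 library 3 (adjusted p = 0.455). The vascular marker list, higher in both D2 libraries, includes Pecam1 itself, at 27.2 and 26.9 CPM of total counts in B6 and 43.3 and 79.2 CPM in D2. Its other members went both ways. Flt1 had 3 and 6 counts in B6 and 0 and 5 in D2, Vtn had 5 and 6 counts in B6 and 7 and 7 in D2, and the strains overlapped at Dcn. Cd300lf, an inhibitory receptor, had 1 count in B6 and 21 in D2 (2.09 and 0 CPM in B6 and 20.1 and 24.3 CPM in D2), with a pooled level, scaled to total counts, 25.6 times (exact 95% counting interval 4.12 to 1058) as high in D2, and its call was lost with DESeq2 (adjusted p = 0.241) and without B6 library 3 (adjusted p = 0.172). The Dock, Elmo1 and integrin genes of the list did not pass the test.

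Alzheimer disease risk genes were called in 3 of 30 tested members (10%), near the 8.06% of all tested. Picalm, an adaptor of clathrin-mediated endocytosis, was at 775 and 785 CPM in B6 and 375 and 404 CPM in D2 (log2 fold change -0.999, SE 0.13, adjusted p = 8.66e-06), and overlapped 4 symbols counted in 1 strain. App, the amyloid precursor gene, was at 294 and 357 CPM in B6 and 231 and 226 CPM in D2 (log2 fold change -0.52, SE 0.16, adjusted p = 0.0408), and its call was lost with DESeq2 (adjusted p = 0.856), without B6 library 3 (adjusted p = 0.409), without D2 library 2 (adjusted p = 0.187) and without D2 library 3 (adjusted p = 0.235). Apoe, of the disease-associated list, was the increase. Of the genes with known sequence differences between B6 and D2, 5 of 14 were tested. Gabra2, a GABA-A receptor subunit of neurons with a known B6 variant, was at 115 and 97.5 CPM in B6 and 35.2 and 67.3 CPM in D2 (log2 fold change -0.98, SE 0.28, adjusted p = 0.0294), and its call was lost with DESeq2 (adjusted p = 0.678), without B6 library 2 (adjusted p = 0.0944) and without D2 library 2 (adjusted p = 0.347). App and Gabra2 are abundant in neurons, whose markers were lower in D2 as well. The part of the known variant in the Gabra2 difference was not tested. Glo1, Myo5a and Kcnj9 did not pass the test, with log2 fold changes of 0.62, 0.20 and 0.16.

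Chromatin accessibility was set beside these differences without a test. The single-nucleus ATAC sequencing (snATAC-seq) data, which count fragments in open chromatin, held 142 MGC nuclei, 23 to 54 per library, with 346099 to 606554 counts over 300819 peaks (CPM are of these counts). Peaks overlapped the promoter window of 52 of the 69 named genes with a RefSeq promoter, and of 7 of 12 microglial markers. No peak overlapped the windows of Ccr6, Fcrls, Nlrp1b or C1qc. At Fggy the peak chr4:95556791-95558977 had 16 and 15 counts in B6 and 1 and 2 in D2 (26.4 and 43.3 CPM in B6 and 2.18 and 5.62 CPM in D2), both D2 libraries being lower as the transcript was. At Ccdc85a the peak chr11:28582107-28584533 had 14 and 3 counts in B6 and 29 and 16 in D2 (23.1 and 8.67 CPM in B6 and 63.3 and 44.9 CPM in D2), and at Mertk chr2:128697785-128699529 had 26 and 23 counts in B6 and 10 and 14 in D2 (42.9 and 66.5 CPM in B6 and 21.8 and 39.3 CPM in D2). In both genes the libraries of the 2 strains did not overlap, and the strain with more of the transcript had the higher level in the peak. Lower peaks in both D2 libraries were also found at microglial markers whose transcripts were not called. Trem2 was at 29.7 and 26 CPM in B6 and 15.3 and 14 CPM in D2, and Inpp5d at 44.5 and 80.9 CPM in B6 and 26.2 and 36.5 CPM in D2. Ikzf1 and Siglech had lower peaks in D2 too, and the strains overlapped at C1qb, Ptprc and Runx1. At Slfn8 the peak chr11:83020283-83021035 had 4 and 5 counts in B6 and 10 and 6 in D2 (6.59 and 14.4 CPM in B6 and 21.8 and 16.9 CPM in D2). At Cst3 chr2:148874210-148875809 had 39 and 28 counts in B6 and 28 and 23 in D2, and at Scoc chr8:83441712-83443543 had 31 and 23 counts in B6 and 20 and 16 in D2 (levels of 64.3 and 80.9 CPM in B6 and 61.1 and 64.6 CPM in D2 for Cst3 and 51.1 and 66.5 CPM in B6 and 43.7 and 44.9 CPM in D2 for Scoc). The strains overlapped at Cst3 and did not at Slfn8 and Scoc. Other genes went the opposite way. At Lyz2 the peak was at 6.59 and 11.6 CPM in B6 and 2.18 and 2.81 CPM in D2, at Myo1e at 46.2 and 34.7 CPM in B6 and 24 and 28.1 CPM in D2, and at Pik3ap1 at 19.8 and 26 CPM in B6 and 8.73 and 16.9 CPM in D2, each lower in D2 while the transcript was higher. Of the 45 named and called transcripts with a promoter peak, taking the peak of highest mean level for each, 12 had peak levels apart between strains in the direction of the transcript, 7 in the opposite direction and 26 overlapping. Peak levels were apart for 30.4% of the 6502 tested transcripts with a promoter peak, 15.2% in the direction of the transcript's fold change and 15.2% in the opposite one. The peaks given singly were chosen after their values had been seen, and counts this low allow wide counting error.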

How the data were processed

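Nuclei of the ventral hippocampus were profiled with a droplet protocol. Per the labels and methods, the authors mapped reads with Cell Ranger 6.0.2, retaining introns. The reference was mm10 for B6 and, for D2, an mm10 in which only D2 single-nucleotide variants were substituted. They filtered nuclei, removed doublets and clustered with Seurat 4.0.5. Raw counts summed over the nuclei of each of 17 cell types and 4 libraries were deposited. The annotation release is not given in the sources used here. They also deposited numbers (counts) of nuclei, and snATAC-seq counts over merged peaks. Library numbers in the tables (2 and 3) differ from the replicate numbers of the labels (1 and 2), and each column was therefore assigned to a strain only. Columns of other cell types, 64 for snRNA-seq and 56 for snATAC-seq, were left out, so no comparison with other nuclei was made. Methylation samples and cell barcodes were not analysed here. The paper names MGC among the small non-neuronal clusters that did not match between RNA and methylation, and it left them out of its later analyses. Its snATAC-seq cell types were transferred from the snRNA-seq annotation.

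Symbols with microglial counts in 1 strain (2049 in B6 and 3965 in D2, 2.02% and 4.6% of the counts) were left out. D2 was compared with B6 by edgeR 4.0.16 (R 4.3.3, TMM, filterByExpr, quasi-likelihood F test, Benjamini-Hochberg), with standard errors derived from the F statistics. CPM were scaled by TMM library sizes, except for sums over marker lists, pooled levels, peaks and symbols counted in 1 strain, which used total counts. Fitted fold changes against 3 or fewer counts depend on the prior count, so ratios of summed counts scaled to the summed library totals (pooled levels) are given with exact 95% intervals, which cover counting error only. DESeq2 1.42.0 was the alternative. On counts simulated for this comparison over 8796 transcripts with 200 changed, edgeR recovered 96% of 4-fold and 55% of 2-fold changes with 8.48% of calls false, and DESeq2 77% and 24% with 0. The simulation gave every transcript the same dispersion and changed only transcripts at a mean of at least 20 CPM. Its rates do not cover transcripts with more spread or changes at lower levels. Coordinates and overlaps came from GENCODE vM21 (GRCm38), in which 16099 of the 16350 symbols had a single entry. Python 3.11.15, numpy 2.4.6, pandas 2.3.3 and matplotlib 3.10.9 were used.

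The comparison and gene lists were chosen with earlier results of these data known. Named are the 12 largest changes in each direction at adjusted p under 0.05, a mean of at least 20 CPM, libraries of the strains apart and no predicted-gene name, up to 4 members of each role list by smallest p, and tested members of the list of known sequence differences. The second set of 24, the other 15 called list members and the uncalled members given as reference were added after seeing the data. A few members that these rules name are not reported here.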

Additional observations from a re-analysis of the deposited data

How the results depend on the processing

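The 709 calls (287 higher, 422 lower) became 157 with DESeq2 (67 and 90), 459 at an absolute log2 fold change over 1 (170 higher), 419 without genes overlapping on the same strand (211 lower), and, chosen after seeing the data, 261 without overlap on either strand (134 and 127) and 478 without genes overlapping a symbol with microglial counts in 1 strain (271 lower). Other normalization and filters gave 672 to 877. Leaving out 1 library gave 510 to 608 calls, 207 to 260 higher and 288 to 382 lower. The lone library of a strain is then assumed to vary like the other strain. Some adjusted p-values, such as those of Fcrls, were smaller in these fits than in the full fit. A call that held in them is therefore no stricter check. With the library number as a replicate block there were 591 calls (229 and 362). Same-numbered libraries deviated with a correlation of -0.08, so the numbers were not taken to pair libraries. The block ended the calls of App and Alox5. Of 81 named calls 34 were lost with DESeq2, 26 at the fold limit and 9 to 16 without 1 library, and 38 held in every alternative that tested them. Kcnj9, not called, changed sign without D2 library 3, with values of -0.16 to 0.41 over the 4 fits that leave out a library. Fits that need the other cell types (symbols counted in any cell type, and the contrast of microglia with other nuclei) were not run. Depth limits detection, since 1 count is 1.43 to 2.52 CPM by TMM library sizes.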

Other observations

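Symbols with microglial counts in 1 strain stood outside the comparison, and some belong to genes of immune function. Stab2, a scavenger receptor for hyaluronan, had 88 and 165 counts in D2 (200.3 and 278 CPM of total counts) and none in B6, which is at least 103-fold higher in D2 when 3 counts summed over B6 are taken as the floor. Trim30d, of the TRIM family, had 39 and 61 counts in B6 and none in D2, at least 27.3-fold lower in D2, and the restriction factor gene Trim5 had 41 and 42 counts in B6 and none in D2, at least 22.7-fold lower. Whether each symbol was counted in the strain where it is at 0 was not tested. The haemoglobin gene Hba-a1 had 5 and 125 counts in B6 and none in D2, so that 1 of the 2 B6 libraries held nearly all of them. These symbols were chosen after their values had been seen.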
